A study of Homo sapiens with 6 samples.

Results

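Transcript levels of 9 genes that encode extracellular matrix proteoglycans, secreted modulators of the matrix and of growth factors, and proteins through which cells bind and anchor to the matrix were followed in neuroblastoma cells with an inducible histone demethylase. The genes were decorin (DCN), lumican (LUM), biglycan (BGN), IGFBP7, TFPI2, ENPP2, CD44, vimentin (VIM) and fibronectin (FN1), taken as every probe set annotated to exactly 1 of these symbols. All 9 had a named probe set, out of 14884 genes named on the array, and they occupied 11 probe sets because VIM had 3. They were chosen for their behaviour in the comparison described here, as genes lower without doxycycline set against TFPI2, which was higher, so their differences, and whether each passed the threshold of the fit over all probe sets, are given as a description and not as evidence.

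The study comprised 6 arrays of RNA taken after 6 days of culture, 3 of cells kept without doxycycline and 3 of cells kept with it. Both groups were BE(2)-C_tetoff_KDM4C cells, a derivative of the human neuroblastoma line BE(2)-C, grown in DME/F-12 with dialyzed serum. In a tet-off system the construct, here KDM4C, is silent while doxycycline is present and expressed once it is absent. KDM4C removes methyl groups from lysine 9 of histone H3. Cells without the construct were not analysed here, so KDM4C induction and the absence of doxycycline cannot be told apart. The labels do not say whether the line is a single clone, and the design text calls the samples of a group independent without naming separate cultures, so the spread between them may be technical.

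Decorin, lumican and biglycan are small leucine-rich proteoglycans, secreted proteins that bind collagen fibrils and, in the case of decorin and biglycan, the growth factor TGF-beta. IGFBP7 is a secreted protein related to the insulin-like growth factor binding proteins, and TFPI2 is a secreted Kunitz-type inhibitor of serine proteases such as plasmin. ENPP2, also called autotaxin, is a secreted enzyme that makes the signalling lipid lysophosphatidic acid. CD44 is the main surface receptor for hyaluronan, vimentin is the intermediate filament protein of mesenchymal cells, and fibronectin is a large adhesive glycoprotein of the matrix. In neuroblastoma, high vimentin, CD44 and fibronectin are known as features of mesenchymal-type cells, as opposed to the noradrenergic type.

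Values are log2 expression values as the authors deposited them, and every difference is no doxycycline minus doxycycline, so that a negative difference means lower without doxycycline. KDM4C had log2 values of 8.97, 9.08 and 9.02 without doxycycline, against 7.71, 7.77 and 7.80 with doxycycline, a log2 difference of 1.27 (SE 0.07, limma adjusted p = 0.00788). Its adjusted p in limma was 0.0597 to 0.0696 without no-doxycycline replicate 2 or 3 or doxycycline replicate 1 or 2. Without no-doxycycline replicate 1 it was 0.0315, and without doxycycline replicate 3 it was 0.0311. The log2 difference lay between 1.24 and 1.29 with any array left out. The groups therefore had the order that a tet-off construct gives. Over all 53617 probe sets the deposited values ran from 2.12 to 14.3, array medians lay between 3.94 and 3.96, and arrays correlated at 0.991 to 0.993 inside a group and at 0.990 to 0.991 across the groups. Noradrenergic markers were present in both groups, with 7 of 10 listed genes measured and mean log2 levels of 8.80 for GATA2 to 11.14 for DBH.

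Among the 9 genes, 6 had a lower mean and 3 a higher mean without doxycycline. The largest differences, of opposite sign, were those of decorin and TFPI2, followed by IGFBP7, CD44 and ENPP2 among the lower genes. Lumican and vimentin were lower by smaller amounts, and biglycan and fibronectin differed by less than their standard error. The median log2 difference of the 9 was -0.30 and the median size 0.51, against 0.006 and 0.09 over all probe sets. The choice of the genes fixes this contrast with the background.

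**Figure D1:**
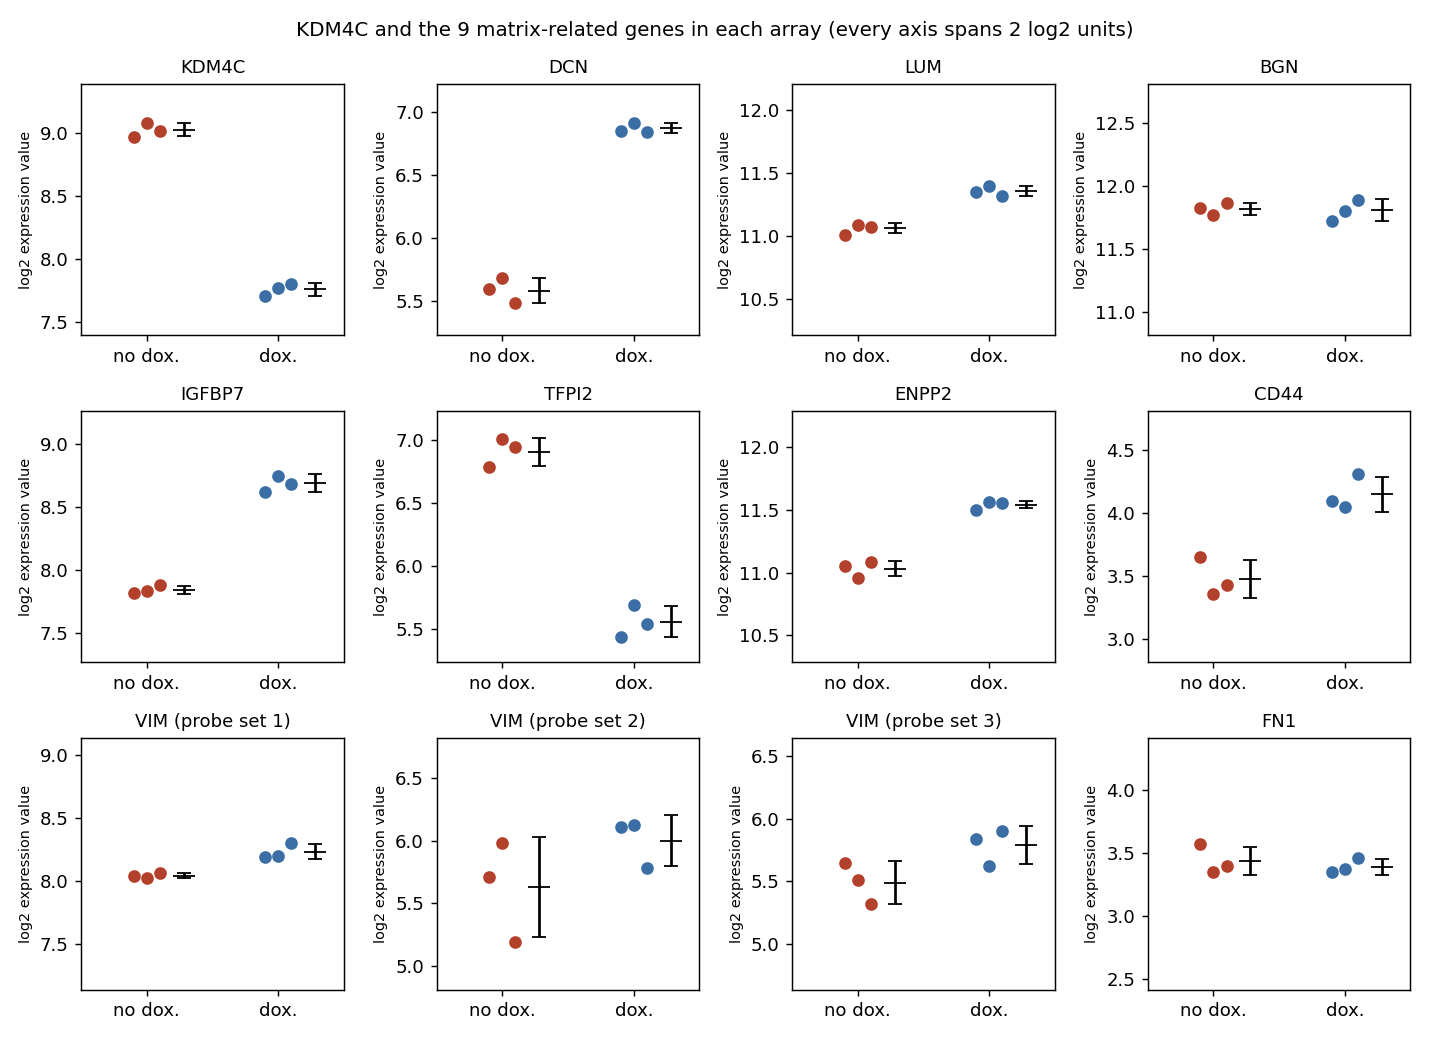
Log2 expression values of KDM4C and of the 11 probe sets of the 9 genes, by array. Red points are the 3 arrays without doxycycline and blue points the 3 with it, black bars show the mean and SD of each group, and every vertical axis spans the same log2 range. Among the 9 genes the groups are farthest apart for DCN and TFPI2, in opposite directions, and they intermingle for BGN, FN1 and VIM probe sets 2 and 3.

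Of the small leucine-rich proteoglycans, decorin stood lowest without doxycycline relative to its level with it. DCN had log2 values of 5.59, 5.68 and 5.48 without doxycycline, against 6.85, 6.91 and 6.84 with doxycycline. Every array without doxycycline lay below every array with it, with 1.16 log2 units between the nearest arrays of the groups. The group means were 5.58 ± 0.10 and 6.87 ± 0.04 (SD, n = 3 each), a log2 difference of -1.29 (SE 0.07) or a level 2.44-fold lower. A difference of larger size was found in 0.0951% of all probe sets, from which nothing is read, since DCN was chosen on this contrast.

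Lumican, which is encoded next to decorin on chromosome 12, moved far less. LUM had log2 values of 11.01, 11.09 and 11.07 without doxycycline, against 11.35, 11.40 and 11.32 with doxycycline. The groups did not overlap, with 0.23 log2 units between the nearest arrays. The log2 difference was -0.30 (SE 0.06), 1.23-fold lower, a size exceeded by 9.73% of all probe sets.

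Biglycan, the closest relative of decorin in this family, had log2 values of 11.83, 11.77 and 11.87 without doxycycline, against 11.72, 11.80 and 11.89 with doxycycline. The groups were intermingled. The log2 difference was 0.02 (SE 0.07), and 89.4% of all probe sets had a difference of larger size. The 3 proteoglycans thus gave log2 differences of -1.29, -0.30 and 0.02 for DCN, LUM and BGN.

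Among the secreted modulators, IGFBP7 was lower and TFPI2 higher without doxycycline. IGFBP7 had log2 values of 7.82, 7.83 and 7.88 without doxycycline, against 8.62, 8.75 and 8.68 with doxycycline. The 3 arrays without doxycycline were nearly alike (SD 0.03), and all lay below the arrays with doxycycline, the nearest 0.74 log2 units apart. The log2 difference was -0.84 (SE 0.07), 1.79-fold lower.

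TFPI2 had log2 values of 6.79, 7.01 and 6.95 without doxycycline, against 5.44, 5.69 and 5.54 with doxycycline. All 3 arrays without doxycycline lay above all 3 with it, and the nearest arrays of the groups were 1.10 log2 units apart. The means were 6.91 ± 0.11 and 5.56 ± 0.12 (SD, n = 3 each), a log2 difference of 1.36 (SE 0.09) or a level 2.56-fold higher. The size of the TFPI2 difference was exceeded by 0.0765% of all probe sets, again for a gene chosen on this contrast.

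The lysophosphatidic acid-producing enzyme ENPP2 had log2 values of 11.05, 10.96 and 11.08 without doxycycline, against 11.50, 11.56 and 11.55 with doxycycline. The groups did not overlap, and the nearest arrays were 0.42 log2 units apart. The log2 difference was -0.51 (SE 0.07), 1.42-fold lower. As for lumican, the mean value lay above that of 98.8% of all probe sets.

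Of the proteins that bind cells to the matrix or mark mesenchymal cells, CD44 differed most. CD44 had log2 values of 3.65, 3.36 and 3.43 without doxycycline, against 4.10, 4.05 and 4.31 with doxycycline. The groups did not overlap, with 0.40 log2 units between the nearest arrays. The log2 difference was -0.67 (SE 0.11), 1.60-fold lower. The CD44 mean lay below the median of all probe sets (3.94) and no background level could be set for these arrays.

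Vimentin was represented by 3 probe sets, and all 3 had a negative difference. The probe set with the highest values had 8.04, 8.02 and 8.06 without doxycycline, against 8.19, 8.20 and 8.30 with doxycycline, a log2 difference of -0.19 (SE 0.06) between groups that did not overlap. In the other VIM probe sets the log2 differences were -0.38 (SE 0.21) and -0.29 (SE 0.11), with overlapping groups. Probe set 2 was the most variable measurement among the 9 genes, with an SD of 0.40 without doxycycline and 0.20 with it.

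Fibronectin was at the low end of the array's range in both groups. FN1 had log2 values of 3.57, 3.35 and 3.40 without doxycycline, against 3.35, 3.37 and 3.46 with doxycycline. The groups overlapped, and the log2 difference was 0.05 (SE 0.08). Its values exceeded those of only 31.1% of probe sets, so a change at such a level could be missed.

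With the limma fit over all probe sets and Benjamini-Hochberg adjustment, DCN, IGFBP7 and ENPP2 were among the probe sets past an adjusted p of 0.05 in the lower direction and TFPI2 in the higher, that is 3 and 1 of 9, while 5 genes were not past it. Over all probe sets 0.0933% passed as lower and 0.248% as higher, 0.341% in all. Groups that did not overlap were found for 6 of the 9 genes in the lower direction and for TFPI2 in the higher, where 9.09% and 10.2% of all probe sets had such groups. Since the genes were chosen on this contrast, nothing is read from these counts. The passing of single genes depended on the arrays in the fit, as seen with 1 array left out. DCN then remained past the threshold without no-doxycycline replicate 1 or doxycycline replicate 3 alone, and TFPI2 without no-doxycycline replicate 1 alone. IGFBP7 and ENPP2 remained past it in none of the 6 cases. The differences were then between -1.33 and -1.23 for DCN, -0.88 and -0.81 for IGFBP7, -0.54 and -0.47 for ENPP2 and 1.30 and 1.42 for TFPI2.

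**Figure D2:**
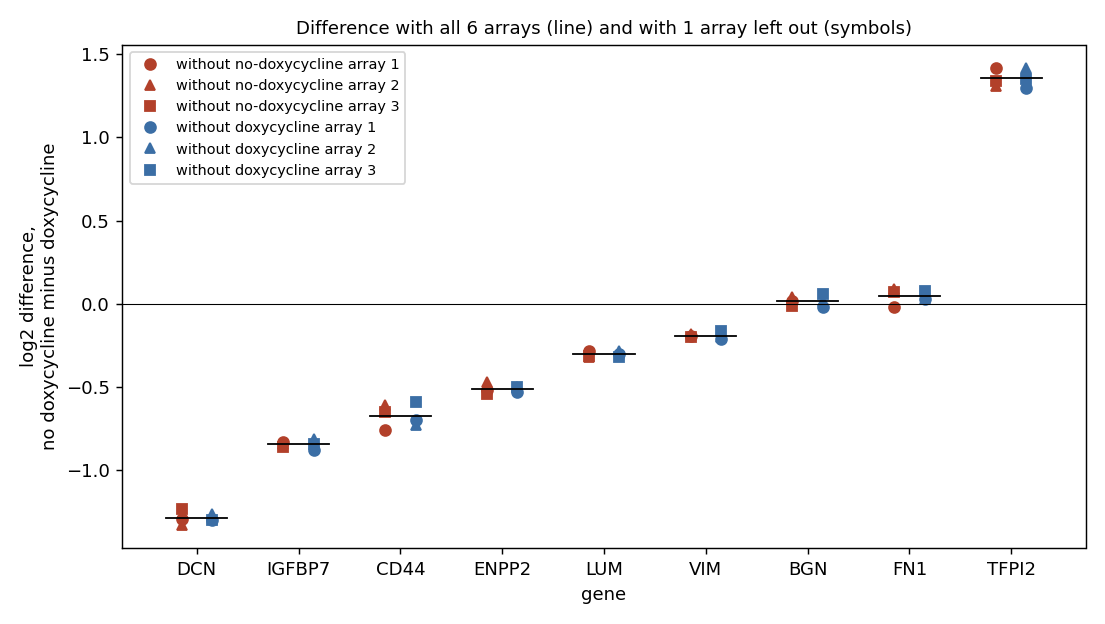
Log2 difference, no doxycycline minus doxycycline, of the 9 genes with all 6 arrays (black line) and with each array left out in turn (red symbols, an array without doxycycline left out; blue symbols, an array with doxycycline left out). DCN stays between -1.33 and -1.23 and TFPI2 between 1.30 and 1.42, while BGN and FN1 fall on both sides of 0.

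**Figure D3:**
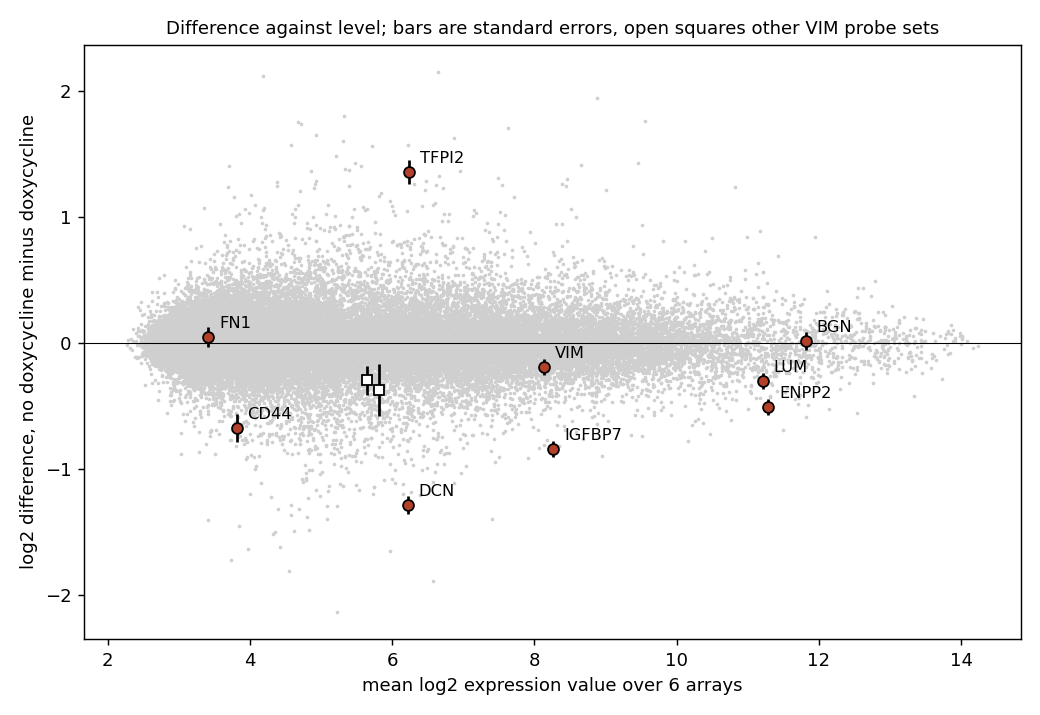
Log2 difference, no doxycycline minus doxycycline, against the mean log2 expression value over the 6 arrays, for all probe sets (grey) and the 9 genes (red circles, with standard errors; open squares are VIM probe sets 2 and 3). DCN and TFPI2, at a similar mean value, lie on opposite edges of the cloud, and BGN and FN1 lie near 0.

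The genes whose profiles over the 6 arrays were most like those of the 9 were found by the root mean square distance between log2 profiles, each centred on its own mean, over 16098 named probe sets. This distance was computed for the 5 genes with a difference of at least 0.5 in size and groups that did not overlap. It is a description of 6 arrays in 2 groups, so the size of the difference between the groups weighs heavily in it. For DCN the nearest were TM4SF4, a membrane protein with 4 transmembrane segments, at a distance of 0.16, ARHGEF28 at 0.17 and GPR155 at 0.18. Their log2 differences were -1.02, -0.98 and -0.95, all smaller in size than that of DCN.

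IGFBP7 had closer neighbours in profile. NPY2R, a receptor of neuropeptide Y, was at a distance of 0.04, with 7.79 without doxycycline and 8.56 with it, and GPR155 and ARHGEF28 were at 0.06 and 0.07. GPR155 and ARHGEF28 were also among the 3 nearest to DCN. The profile nearest to TFPI2 was that of KDM4C itself, at a distance of 0.08, followed by TRIB3, a pseudokinase of the stress response, at 0.09 and a row annotated to MIR3143 at 0.14. TRIB3 averaged 8.14 without doxycycline and 6.83 with it.

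For ENPP2 the nearest profiles were CHST15, a sulfotransferase acting on chondroitin sulfate, at 0.05 and the ion channel subunit ASIC1 and the receptor tyrosine kinase ERBB4, both at 0.06. CHST15 averaged 7.88 without doxycycline and 8.41 with it. For CD44 they were ZNF467 at 0.06 and ANKRD12 and the calpain CAPN13, both at 0.09, with log2 differences of -0.58, -0.55 and -0.52.

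Genes that lie beside the 9 along the chromosome had smaller differences than DCN, TFPI2, IGFBP7, CD44 and ENPP2, at most 0.34 in size. DCN and LUM are adjacent on chromosome 12 in the RefSeq gene order of GRCh38.p14, within a run of small leucine-rich proteoglycan genes that continues with KERA (keratocan) and EPYC (epiphycan). KERA averaged 3.10 without doxycycline and 3.07 with it, and EPYC 3.26 and 3.32, log2 differences of 0.02 and -0.05. On the other side, BTG1 had no named probe set, PLEKHG7 was at -0.03 and EEA1, an endosomal tethering protein, was at -0.25 (SE 0.06, limma adjusted p = 0.173). The difference was therefore large at DCN, smaller at LUM and close to 0 at the 2 further proteoglycan genes, whose probe sets had low values.

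Around IGFBP7, NOA1, a mitochondrial GTPase, averaged 10.88 without doxycycline and 11.22 with it, a log2 difference of -0.34 (SE 0.06, limma adjusted p = 0.0975), and REST was at 0.00. Around TFPI2, CALCR, VPS50 and HEPACAM2 on one side had log2 differences of -0.09, -0.15 and 0.00, and BET1 on the other had -0.06. Around ENPP2, CCN3 was at -0.29 and DEPTOR, an inhibitor of mTOR, at 0.29 (limma adjusted p = 0.243 and 0.168). In all, 32 of the 48 distinct genes within 3 places on either side of the 9 were measured. Of these 32, 0 passed the limma adjusted threshold. Over all probe sets 0.341% passed it, so a count of 0 among 32 tells little. The log2 differences of the 32 ran from -0.34 to 0.29 with a median of -0.06, and 78.1% were negative, against 48.0% of all probe sets. These shares come from unlike sets, since 37519 of all probe sets had no symbol, and a regional change was not tested.

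**Figure D4:**
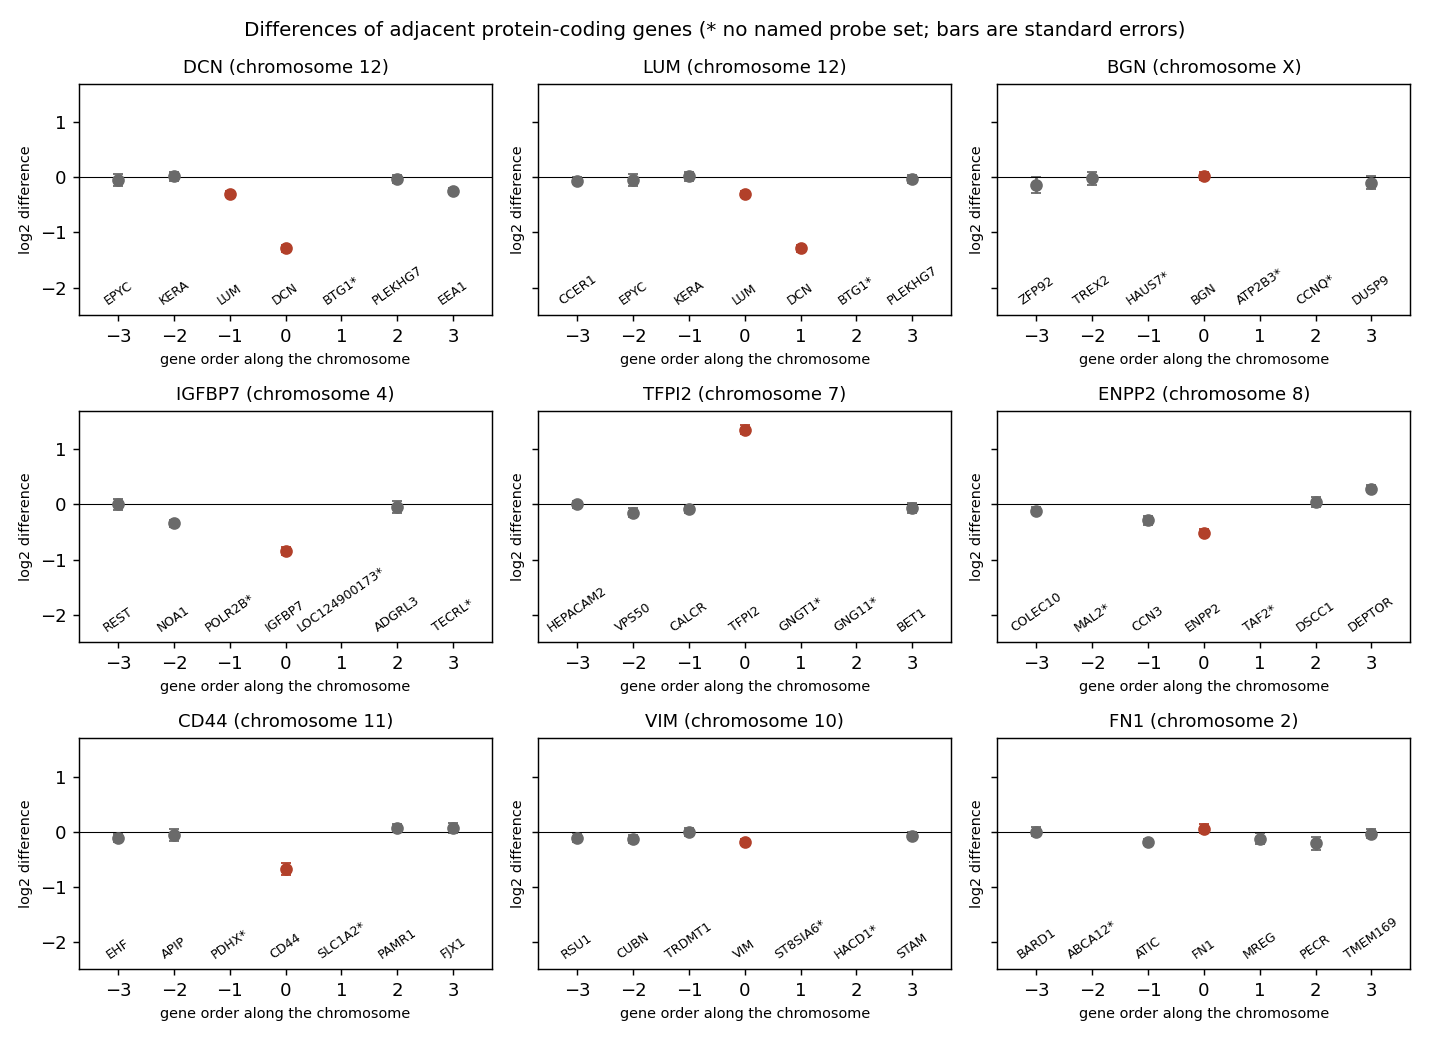
Log2 difference, no doxycycline minus doxycycline, with its standard error, for each of the 9 genes (red, place 0) and the 3 protein-coding genes on either side in RefSeq order (grey; red where the neighbour is another of the 9). An asterisk marks a gene with no named probe set; DCN, at -1.29, stands beside LUM at -0.30 and the other neighbours lie between -0.34 and 0.29.

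The other genes of the same pathways were taken in 10 lists holding 191 genes, none of them among the 9, of which 136 were measured. HMMR was the only gene of these to pass the limma adjusted threshold over all probe sets, as higher, and 0 were lower, where 0.248% and 0.0933% of all probe sets passed. At an unadjusted limma p below 0.05 there were 11 higher and 10 lower, 15.4% of the 136, near the 12.4% of all probe sets. These shares come from unlike sets, since the list genes all had a symbol and 37519 of all probe sets had none. The median log2 difference of the 136 was 0.00, against 0.006 over all probe sets. LOXL1 also passed, as lower, when probe sets with low values were left out of the fit (limma adjusted p = 0.0446).

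Of the other small leucine-rich proteoglycans, 13 of 14 were measured and 0 passed in either direction, with a median log2 difference of 0.02 and a range of -0.17 to 0.13. NYX (nyctalopin) was at -0.13 and OGN (osteoglycin) at 0.11, the smallest unadjusted p in each direction (limma adjusted p = 0.491 and 0.659). FMOD (fibromodulin) averaged 5.82 without doxycycline and 5.94 with it, and TSKU (tsukushi) 6.68 and 6.62. Of the 13, 9 had values under the median of all probe sets, where a change could be missed.

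Other matrix and cell-surface proteoglycans had 19 of 24 genes measured and 0 past the threshold (median -0.06). The glypican GPC5 was at 0.26 (SE 0.08) and the syndecan SDC1 at -0.20 (SE 0.07), with limma adjusted p of 0.260 and 0.310. VCAN (versican), a large hyaluronan-binding proteoglycan, averaged 8.21 without doxycycline and 8.31 with it. Of the TGF-beta list 7 of 16 genes were measured, none of them a TGF-beta ligand or receptor, and 0 passed (median -0.11). LTBP4, a latency protein of TGF-beta, was at -0.22 and CCN2, a TGF-beta target, at 0.18 (limma adjusted p = 0.329 and 0.378). The CCN2 values lay under the median of all probe sets.

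In the insulin-like growth factor list 14 of 18 genes were measured and 0 passed, with a median of 0.01. Of the classical binding proteins, IGFBP4 averaged 10.30 without doxycycline and 10.27 with it, IGFBP5 7.47 and 7.44, and IGFBP6, at low values, 3.57 and 3.79. The receptor IGF1R averaged 10.23 without doxycycline and 10.22 with it, and the insulin receptor INSR was at -0.25 (SE 0.07, limma adjusted p = 0.240). The substrate IRS2 was at 0.20 (limma adjusted p = 0.494). The list ran from -0.25 to 0.20, and 6 of the 14 had values under the median of all probe sets. IGFBP7, at -0.84, was chosen on this contrast, so nothing is read from its place outside that range.

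Among protease inhibitors and their targets, 5 of 17 genes of the Kunitz, serpin, plasminogen and tissue factor list were measured, and 0 passed (median 0.00). TFPI, the relative of TFPI2 that inhibits tissue factor, averaged 3.89 without doxycycline and 3.68 with it, a log2 difference of 0.21 (SE 0.08, limma adjusted p = 0.335). It was among the 3 of these 5 genes with values under the median of all probe sets. APP and APLP2, which also carry Kunitz domains in some isoforms, were at 0.00 and -0.09. Of 20 matrix metalloproteinases and inhibitors 15 were measured and 0 passed (median 0.00), with MMP15, a membrane-type metalloproteinase, at -0.41 (SE 0.10) and the inhibitor TIMP1 at 0.32 (SE 0.11), limma adjusted p of 0.174 and 0.309. TIMP2 averaged 9.12 in both groups, and RECK, a membrane-anchored inhibitor, 6.83 without doxycycline and 7.09 with it.

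Around ENPP2, 12 of 15 genes of the ENPP and lysophosphatidic acid list were measured and 0 passed (median 0.01). PLPP3, a phosphatase that degrades lysophosphatidic acid, averaged 5.92 ± 0.18 without doxycycline and 5.19 ± 0.15 with it (SD, n = 3 each), a log2 difference of 0.73 (SE 0.12, limma adjusted p = 0.0771). The receptor LPAR3 was at -0.29 (SE 0.13, limma adjusted p = 0.432), and LPAR1 averaged 8.28 without doxycycline and 8.36 with it. The 5 other ENPP genes measured had log2 differences between -0.06 and 0.04. Of the 12 list genes, 7 had values under the median of all probe sets, where a change could be missed. ENPP1, ENPP3, ENPP4 and ENPP5 were among them.

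In the hyaluronan and CD44 list 17 of 21 genes were measured, 1 rose and 0 fell (median -0.02). Of the 17, 11 had values under the median of all probe sets, LYVE1 among them, where a change could be missed. HMMR, a hyaluronan-binding protein that also acts at the mitotic spindle, averaged 9.10 ± 0.05 without doxycycline and 8.54 ± 0.04 with it (SD, n = 3 each), a log2 difference of 0.56 (SE 0.06, limma adjusted p = 0.034). HMMR was not past the threshold with any 1 array left out. LYVE1, another hyaluronan receptor, was at -0.15 (limma adjusted p = 0.467), and the ezrin family members EZR, RDX and MSN, which link CD44 to actin, were at 0.19, -0.02 and 0.09.

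Of the intermediate filament proteins 10 of 15 were measured and 0 passed (median 0.10), with LMNA, which encodes lamins of the nuclear envelope, at 0.27 and DES (desmin) at -0.18 (limma adjusted p = 0.280 and 0.428). NES (nestin) averaged 7.36 without doxycycline and 7.22 with it, and PRPH (peripherin), the filament of peripheral neurons, 9.30 and 9.49. Of the list of fibronectin receptors and matrix glycoproteins 25 of 34 genes were measured, all of them matrix proteins or enzymes acting on them, and 0 passed (median 0.03). LOXL1, a lysyl oxidase of elastic fibres, averaged 6.71 without doxycycline and 7.13 with it, a log2 difference of -0.43 (SE 0.06, limma adjusted p = 0.0629), and MFAP4, a microfibril-associated protein, was at 0.44 (SE 0.10, limma adjusted p = 0.160).

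**Figure D5:**
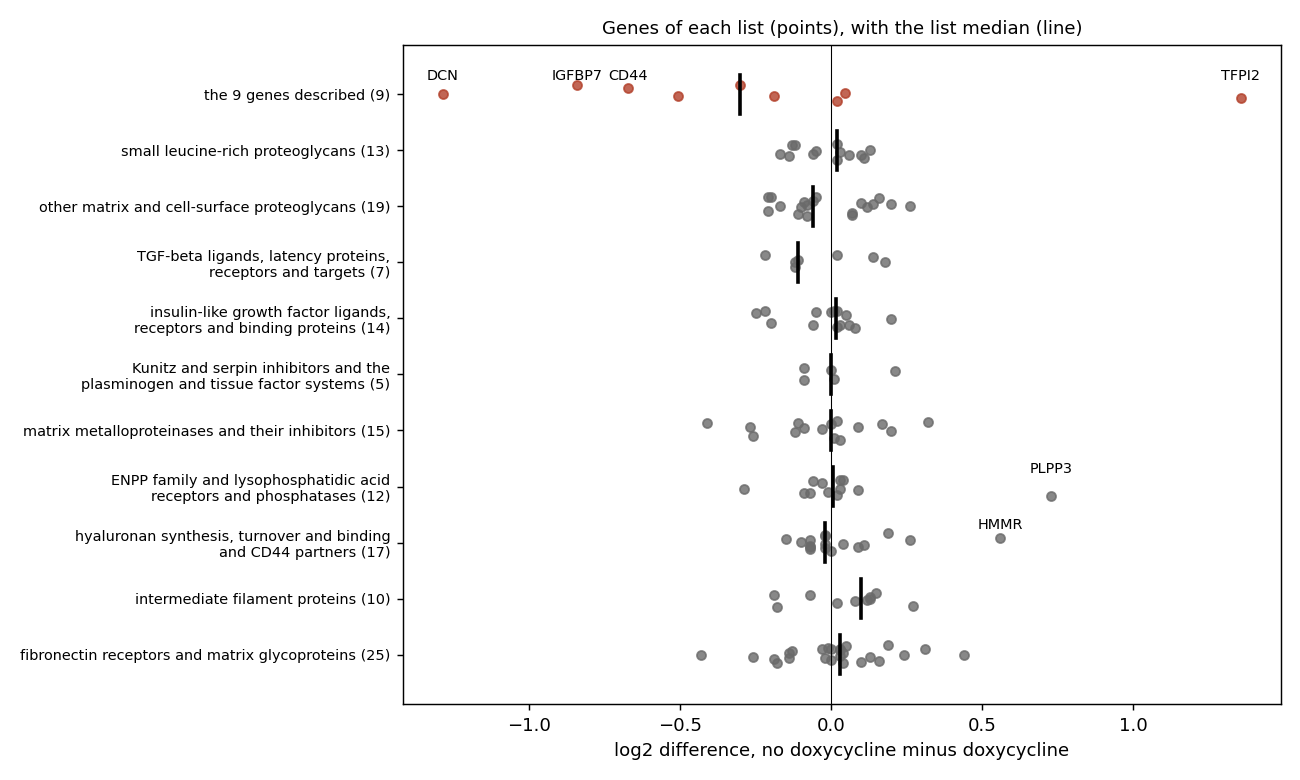
Log2 difference, no doxycycline minus doxycycline, of the 9 genes (red) and of the measured genes in each of the 10 pathway lists (grey; number of genes in brackets), with the median of each as a black line. The list medians lie between -0.11 and 0.10, and PLPP3 at 0.73 and HMMR at 0.56 stand farthest out among the list genes.

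Markers of cell types were read beside these results, because in a bulk culture fewer cells of a type and less RNA per cell cannot be told apart. Of 10 markers of mesenchymal neuroblastoma cells 9 were measured and 0 passed (7 higher and 2 lower in mean, median 0.09). Of the 9, 5 had values under the median of all probe sets, PRRX1 among them, where a change could be missed. SNAI2, a transcription factor of mesenchymal cells, averaged 9.23 without doxycycline and 8.82 with it, the opposite order to CD44 and VIM, and PRRX1 averaged 3.42 and 3.60. The summed log2 values of this list ran from 45.8 to 46.0 without doxycycline and from 44.6 to 45.5 with it. Of 7 measured noradrenergic markers 0 passed, with a median of 0.15 and summed values of 67.5 to 68.3 without doxycycline and 66.6 to 67.3 with it.

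Of the fibroblast markers only THY1 was measured, 1 of 8, at 6.58 without doxycycline and 6.65 with it, so a fibroblast contribution was not tested. Of 7 Schwann cell markers 5 were measured and 0 passed (1 higher and 4 lower in mean, median -0.11), with summed values of 20.7 to 20.9 without doxycycline and 20.9 to 21.7 with it. SOX10, the defining factor of that lineage, averaged 3.81 and 3.96, below the median of all probe sets without doxycycline and at about that median with it. Endothelial (3 of 5 measured), immune (3 of 5) and epithelial (4 of 5) markers had 0 genes past the threshold and medians of 0.08, -0.01 and 0.09. Values under the median of all probe sets, where a change could be missed, were found for 3 Schwann cell and 3 endothelial markers. The same held for 2 immune markers and 1 epithelial marker. Summed values without and with doxycycline were 8.88 to 9.40 and 8.62 to 9.15 for the endothelial, 12.5 to 12.7 and 12.4 to 13.0 for the immune, and 19.4 to 20.5 and 19.6 to 19.7 for the epithelial list. No marker value was 0, since log2 array values have no zero level, and the part of other cell types in the differences was not tested.

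Promoter sequences were available for 5 of the 9 genes (BGN, TFPI2, CD44, VIM and FN1), matched by gene symbol. Those of the higher gene TFPI2, the lower gene CD44 and BGN, whose groups overlapped, are shown as single examples. Each is the 250 bases before the RefSeq start in GRCh38.p14, 5′ to 3′ on the strand of the gene. CD44 had low values and was not past the threshold, and the lower genes past it (DCN, IGFBP7 and ENPP2) had no sequence. Capitals mark the GC box, GGGCGG on either strand.
TFPI2, chr7:93890754-93891003, minus strand: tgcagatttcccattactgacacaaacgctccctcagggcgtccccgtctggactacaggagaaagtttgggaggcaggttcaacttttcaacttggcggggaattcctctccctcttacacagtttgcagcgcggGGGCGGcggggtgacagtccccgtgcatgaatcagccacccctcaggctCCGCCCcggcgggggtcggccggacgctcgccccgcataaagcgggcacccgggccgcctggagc
CD44, chr11:35138921-35139170, plus strand: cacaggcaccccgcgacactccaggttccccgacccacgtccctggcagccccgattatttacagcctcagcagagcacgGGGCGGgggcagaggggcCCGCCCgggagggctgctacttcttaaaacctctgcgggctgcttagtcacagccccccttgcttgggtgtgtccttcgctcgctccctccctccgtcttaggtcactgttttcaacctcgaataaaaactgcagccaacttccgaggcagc
BGN, chrX:153494730-153494979, plus strand: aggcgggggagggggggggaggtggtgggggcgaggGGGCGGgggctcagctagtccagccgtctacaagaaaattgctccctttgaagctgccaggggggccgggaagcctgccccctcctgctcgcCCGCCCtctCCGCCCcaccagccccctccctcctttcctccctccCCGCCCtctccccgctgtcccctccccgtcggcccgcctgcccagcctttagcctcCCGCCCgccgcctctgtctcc

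The window before TFPI2 held 20 CpG dinucleotides and 2 GC boxes, that before CD44 15 and 2, and that before BGN 16 and 5. Over 35116 promoter windows of the same length the median was 11 CpG dinucleotides, and 42.6% held a GC box. FN1, which had low values in both groups, had 32 CpG dinucleotides, more than 90.5% of windows, and VIM had 8. On both strands, the AP-1 motif TGAGTCA (in 4.20% of all windows), the C/EBP-ATF motif TGATGNAA (3.14%), the E-box CACGTG (6.34%) and the TATA box TATAAA (10.7%) were searched in the 5 windows and matched in 0. The cAMP response element TGACGTCA (1.65% of all windows) was matched once, before FN1. These matches describe the letters in a short window only.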

How the data were processed

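Total RNA of 6 samples was labelled with biotin through a whole-transcript terminal labelling kit and hybridised to Affymetrix arrays, per the labels' protocols. The deposited values are log2 expression values of each probe set on each array, made by the authors with Partek, per the submitters' processing notes. How background was corrected, arrays were normalized and probes summarized, and on which genome build, is not given in the sources used here. A log2 base follows from the range of the values. The number of arrays limits the precision. Gene names came from GEO's annotation of the platform: of 53617 probe sets, 16098 had 1 symbol, 0 several and 37519 none.

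All probe sets were fitted with limma 3.58.1 in R 4.3.3 (lmFit, eBayes), no covariate and no filter, with Benjamini-Hochberg adjustment over all of them and a threshold of 0.05. The probe set with the highest mean stood for a gene. A two-sided exact permutation test of 3 against 3 arrays cannot go below p = 0.1. In simulated arrays of this comparison, recovery was 19.4% for 67 probe sets shifted by 0.5 on the log2 scale, 88.1% for 67 shifted by 1 and 98.5% for 66 shifted by 2. False calls numbered 4. The simulated noise was normal and independent between probe sets, and few probe sets were shifted, so recovery and false calls in the real arrays can differ.

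The genes described and the pathway and marker lists were chosen with earlier results of these data known. Named list genes are those past the threshold, otherwise the gene with the smallest p in each direction; further list genes, the gene neighbours and the promoter motifs were chosen after values were seen. The alternatives were quantile normalization, trended robust moderation, leaving out probe sets below the median mean value, the replicate block, averaging the probe sets of a gene and leaving out each array.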

Additional observations from a re-analysis of the deposited data

How the results depend on the processing

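Moderation, the balanced block and the filter leave a log2 difference as it is, so for the 9 genes only quantile normalization, averaging of the VIM probe sets and leaving out arrays could move it. VIM was at -0.29 with its probe sets averaged, and BGN and FN1, near 0, changed sign in some settings. With 1 array left out the ranges were -1.33 to -1.23 for DCN, -0.32 to -0.28 for LUM, -0.02 to 0.06 for BGN, -0.88 to -0.81 for IGFBP7, 1.30 to 1.42 for TFPI2, -0.54 to -0.47 for ENPP2, -0.76 to -0.59 for CD44, -0.21 to -0.16 for VIM and -0.02 to 0.09 for FN1.

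Counts of calls depended on the setting. The 133 higher and 50 lower probe sets became 255 and 130 with trended robust moderation, and 204 and 107 without dim probe sets, where fewer were tested. Leaving out 1 array left 0 to 12 higher and 0 to 3 lower, with fewer samples. Of the 9 genes, 0 to 1 were then higher and 0 to 1 lower, and of the list genes 0 and 0. LUM also passed as lower with trended robust moderation. Without dim probe sets CD44 and FN1 had no value and 1 list gene, LOXL1, was lower.

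Deviations from the group means correlated at -0.01, -0.01 and 0.04 between same-numbered arrays of the groups. Taken over all probe sets and from means of 3 arrays, such correlations cannot exclude that the numbers pair the samples. With the replicate number as a block in limma, 0 probe sets passed in either direction (6251 at an unadjusted p below 0.05, against 6664 without the block), and 0 of the 9 genes and 0 list genes did. That block takes residual degrees of freedom from 6 arrays, and KDM4C was then at a limma adjusted p of 0.118.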
